A study of Homo sapiens with 9 samples.

Results

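Read counts were examined for 10 genes of lipid transport in Caco-2 cells: the apolipoproteins APOA1, APOA4, APOB, APOC3, APOE and APOM, the lipid transfer protein gene MTTP, the fatty acid binding protein genes FABP1 and FABP2, and the transcription factor gene CREB3L3. They were chosen by name from the 27670 genes of the table, with earlier results of these data known. Each is represented by the RefSeq transcript entry that held most reads summed over the 9 libraries. Of these 10 genes, 9 had a count in any library and 8 passed the filter on low counts that left 14671 genes to test. Caco-2 is a human colon adenocarcinoma line that is widely used as a model of the absorptive intestinal cell. The cells were kept in medium with serum depleted of lipid, and all 9 libraries, made from poly(A)-enriched RNA, came from cells given 10 µM of the statin lovastatin for 48 h, so that no library without the statin enters any comparison. Of these, 3 libraries had the statin only, 3 had SGA360 added at 10 µM and 3 had SGA315 added at 10 µM. Both compounds are, by the labels, selective AHR ligands, AHR being the aryl hydrocarbon receptor, a transcription factor activated by small molecules, and the design asks how expression under lovastatin changes in their presence. The entries used were NM_001318017 for APOA1, NM_000482 for APOA4, NM_000384 for APOB, NM_000040 for APOC3, NM_001302688 for APOE, NM_019101 for APOM, NM_000253 for MTTP, NM_001443 for FABP1, NM_000134 for FABP2 and NM_032607 for CREB3L3.

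Enterocytes and hepatocytes pack dietary or newly made fat into particles built around apolipoprotein B, the large protein that stays with a chylomicron or very low density lipoprotein for its whole life. The microsomal triglyceride transfer protein, of which MTTP encodes the large subunit, loads lipid onto apolipoprotein B in the endoplasmic reticulum, and the fatty acid binding proteins carry fatty acids through the cytosol towards that site. The smaller apolipoproteins are exchangeable: A-I is the main protein of high density lipoprotein, A-IV is made mainly by the intestine and rises with fat absorption, C-III slows the clearance of triglyceride-rich particles, E is the ligand by which remnants are taken up, and M carries sphingosine 1-phosphate. CREB3L3 is a membrane-anchored factor of the liver and intestine that is released by proteolysis and activates apolipoprotein genes, APOA4 among them.

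APOA4, FABP1 and CREB3L3 were the members called in opposite directions with the 2 ligands, and the 150 bases before the transcription start of each are printed to show what lies there. They are RefSeq sequences of GRCh38.p14, read 5′ to 3′ on the strand of the gene: chr11:116823305-116823454 on the minus strand for APOA4, chr2:88128063-88128212 on the minus strand for FABP1 and chr19:4153481-4153630 on the plus strand for CREB3L3. Capitals mark matches to any of 7 short motifs.
APOA4: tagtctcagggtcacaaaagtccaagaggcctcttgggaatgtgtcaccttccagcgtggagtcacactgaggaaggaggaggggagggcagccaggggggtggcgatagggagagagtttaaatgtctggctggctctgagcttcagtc
FABP1: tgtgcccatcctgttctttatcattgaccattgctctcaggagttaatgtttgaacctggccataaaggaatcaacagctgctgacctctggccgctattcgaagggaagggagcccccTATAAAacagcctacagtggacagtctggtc
CREB3L3: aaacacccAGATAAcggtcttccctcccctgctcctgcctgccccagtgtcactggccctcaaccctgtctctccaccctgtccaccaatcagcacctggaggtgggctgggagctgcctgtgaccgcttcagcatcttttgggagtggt

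The motifs were searched on both strands of the 250 bases before the start, and 7 of the 10 members had an entry: APOA4, APOE, APOM, MTTP, FABP1, FABP2 and CREB3L3. The AHR response element TNGCGTG was in none of the 7, against 4.53% of all 27303 promoters. FABP1 held the TATA box letters TATAAA from 31 to 26 bases before its start, a match that 11.1% of all promoters had. CREB3L3 held the GATA letters AGATAA from 142 to 137 bases before its start and FABP2 held them from 42 to 37 bases before, against 9.37% of all promoters. APOM had a match to the HNF4 letters CAAAGNNCA from 214 to 206 bases before its start, against 4.43% of all promoters. None of the 7 held GTTAATNAT for HNF1, TGACGTCA for the cAMP response element or CCACGTG for the E-box of the endoplasmic reticulum stress element, which 0.678%, 1.77% and 3.76% of all promoters held. These are matches of letters only.

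With SGA360, 2 of the 8 tested members rose (APOE and APOC3) and 6 fell (APOA1, APOB, APOA4, MTTP, FABP1 and CREB3L3). Over all genes tested, 31.4% were called higher and 31.4% lower in that comparison. With SGA315, 4 members rose (APOC3, APOA4, FABP1 and CREB3L3), 2 fell (APOA1 and APOB), and APOE and MTTP were not called, against 36% of all genes called higher and 33.2% called lower. SGA360 and SGA315 differed directly in 6 members: APOA1 and APOE were higher and APOC3, APOA4, FABP1 and CREB3L3 lower with SGA360, where 21.8% of all genes were called higher and 20.9% lower. Calls are those of edgeR's quasi-likelihood test at an adjusted p under 0.05, adjusted over all genes tested. The shares of all genes given here are also the background for the counts called in each list below. The call of APOC3 with SGA360 and that of APOA4 with SGA315 were lost under several other settings, given beside those genes. MTTP passed the filter only through groups where it was higher than with SGA360, so its fall is a description.

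The median log2 fold change of the 8 tested members was −0.60 with SGA360, beside 0.02 for all genes, and 0.15 with SGA315, beside 0.04. Between the ligands, SGA360 against SGA315, it was −0.71 beside −0.01. A change of 2-fold or more was reached by 2 members with SGA360 (MTTP and CREB3L3), by none with SGA315, and by 4 between the ligands (APOA4, MTTP, FABP1 and CREB3L3). The shares of all genes with a change of that size were 4.63%, 7.04% and 1.47%. The libraries' values did not overlap between the groups for 8 members with SGA360, 6 with SGA315 and 7 between the ligands, where 66.3%, 70.4% and 49.2% of all genes did not overlap. As the members were chosen with earlier results of these data known, these contrasts are a description. MTTP enters them although no SGA360 library reached the filter's minimum count.

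**Figure D1:**
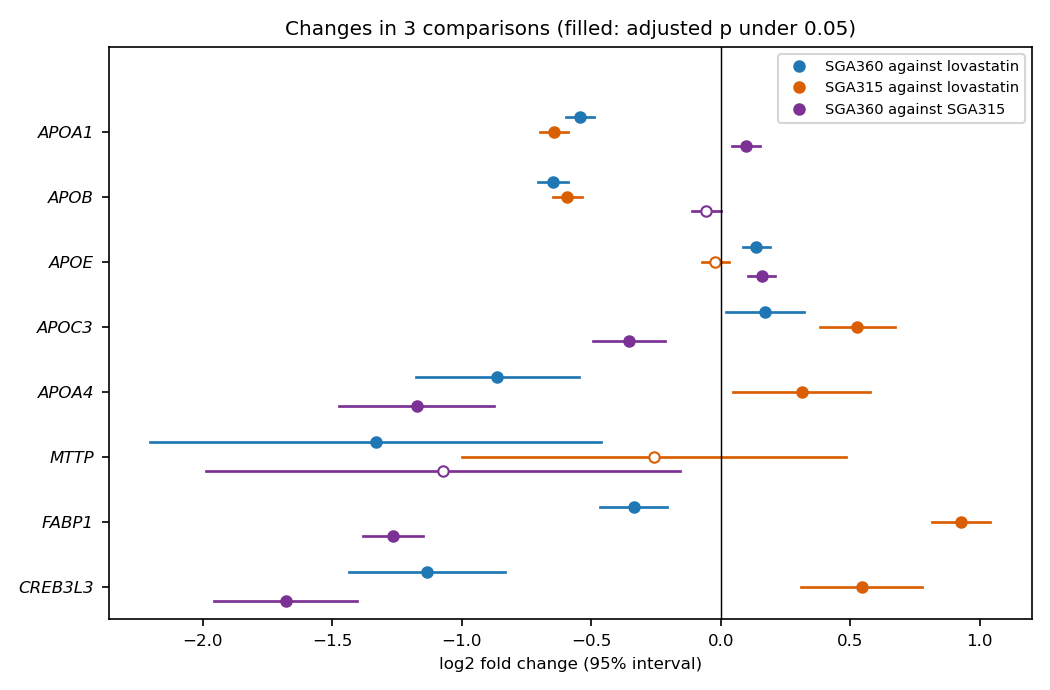
Log2 fold change of each tested gene, with its 95% interval, for SGA360 against lovastatin alone, SGA315 against lovastatin alone and SGA360 against SGA315. Filled points are called at an adjusted p under 0.05. APOA1 and APOB lie left of 0 with both ligands, while APOA4, FABP1 and CREB3L3 lie left of 0 with SGA360 and right of 0 with SGA315.

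Depth ran from 12341785 to 16880776 counts per library, with overlapping ranges in the 3 groups. A count of 0 allows up to 3 counts, or 0.178 to 0.243 CPM (library-size scaled counts), and that limit covers counting error only. Whether the 3 libraries of a group are separate cultures is not in the labels, and the spread that the p-values rest on may be technical. Markers that define Caco-2 as an intestinal epithelial line were mostly present: 8 of 10 passed the filter, and KRT20 and LGALS4 did not. Of the 8, 7 fell with SGA360 (with 1 more called higher under totals only) and 7 fell and 1 rose with SGA315. Summed over the list, the epithelial markers stood at 7965 to 8072 CPM in the lovastatin libraries, 5838 to 6279 CPM with SGA360 and 4320 to 4427 CPM with SGA315. KRT8 and KRT18, which overlap each other, held the most counts of the list (338624 and 157438). With SGA315, over the other settings, KRT8 changed by −1.26 to −1.10 on the log2 scale, KRT18 by −1.22 to −1.07 and EPCAM by −0.57 to −0.42. CDX2 was the marker that rose with SGA315. The part of the epithelial markers in the members' changes was not tested. Fewer cells of a type and less RNA per cell cannot be told apart in such bulk samples. Markers of fibroblasts (2 of 6 tested) summed to 51.6 to 55.3 CPM with the statin only, 36.7 to 39.5 CPM with SGA360 and 26.9 to 29.2 CPM with SGA315. COL1A1 held most of these counts, 4228 over all libraries, beside 1039 for PDGFRB. COL1A2 and DCN were at 0 in both ligand groups, but each had only 1 count over all 9 libraries. Markers of leukocytes and endothelium (4 of 8 tested) summed to 12.9 to 17.7 CPM over all libraries, with ranges that overlapped between the statin-only group and each ligand group. With SGA315 2 of the 4 were called higher and 1 lower, so that this sum joined opposite changes. With SGA360 0 were called higher and 1 lower, and under totals only 2 higher and 0 lower. Some of these calls ended when 1 library was left out. Markers of goblet, Paneth and endocrine cells (4 of 8 tested) summed to 24.7 to 27.5 CPM in the lovastatin group, 20.5 to 21.0 CPM in the SGA360 group and 20.1 to 21.7 CPM in the SGA315 group, with DEFA5 and NEUROD1 at 0 throughout. With each ligand 2 of the 4 fell, LYZ by 1.37 and 0.97 on the log2 scale and SPDEF by 0.83 and 1.66, and CHGB rose. The rise of CHGB with SGA360 was not called with DESeq2 (adjusted p = 0.0516) or without lovastatin replicate 1 (edgeR adjusted p = 0.0523). The secretory markers of hepatocytes, which Caco-2 is known to share in part, summed to 1299 to 1423 CPM in the lovastatin group, 1224 to 1381 CPM with SGA360 and 1251 to 1406 CPM with SGA315, ranges that overlapped. That sum joined opposite changes: with SGA360 1 of 9 tested rose and 7 fell (median log2 fold change −0.29), and with SGA315 2 rose and 7 fell (median −0.52). AHSG rose by 1.16 with SGA360 and 1.35 with SGA315, while AFP fell by 0.89 and by 1.00 and FGA fell by 0.81 and by 1.03. The part of these markers, too, was not tested.

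Per length of transcript, APOE and APOA1 were by far the most abundant members. With lovastatin alone the levels per length were 1557 CPM per kilobase for APOE, 1090 for APOA1, 72.9 for APOB, 53.8 for FABP1, 32.1 for APOC3, 3.39 for APOA4, 2.42 for CREB3L3 and 0.185 for MTTP. In that group the libraries of neighbouring genes in this order did not overlap. With SGA360 the order was the same, but the libraries of APOB (44.6 to 48.0 CPM per kilobase) and FABP1 (40.0 to 48.2) overlapped. With SGA315, FABP1 stood above APOB at 103 CPM per kilobase, the libraries of APOB (46.9 to 50.3) and APOC3 (43.1 to 50.2) overlapped, and so did those of APOA4 (3.90 to 4.38) and CREB3L3 (3.18 to 4.02). The members' share of all counts in a library was 0.325% to 0.331% in the lovastatin group, 0.292% to 0.300% in the SGA360 group and 0.280% to 0.290% in the SGA315 group. APOA1, APOB and APOE made up at least 96.3% of that sum in every library.

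**Figure D2:**
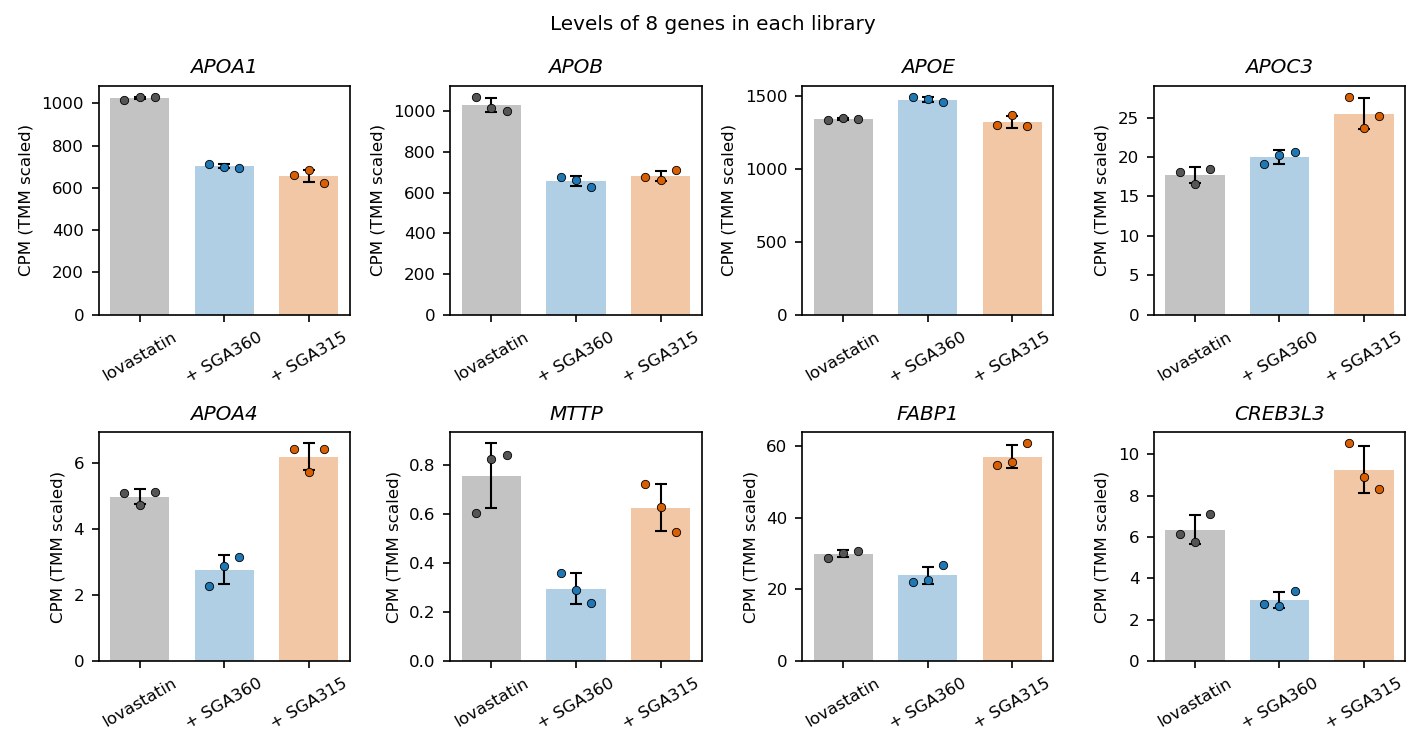
CPM of each tested gene in each library (points), with the mean (bar) and SD over 3 libraries (error bar), for lovastatin alone, lovastatin with SGA360 and lovastatin with SGA315. Each vertical axis starts at 0 and has its own range. FABP1 and CREB3L3 are lowest with SGA360 and highest with SGA315, without overlap.

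APOB encodes the structural protein of chylomicrons and very low density lipoprotein. It was measured at 1071, 1017 and 1003 CPM in the 3 lovastatin libraries, 678, 663 and 630 CPM with SGA360 and 677, 663 and 710 CPM with SGA315. Every library with a ligand lay below every library without one, and the 2 ligand groups overlapped. The mean went from 1030 ± 35.9 CPM to 657 ± 24.6 CPM with SGA360 (SD, n = 3), a log2 fold change of −0.65 ± 0.028 (SE; edgeR adjusted p = 1.37e-30). With SGA315 it went to 683 ± 24.6 CPM (SD, n = 3), a log2 fold change of −0.59 ± 0.028 (adjusted p = 1.01e-28). The difference between the ligands was −0.06 on the log2 scale, with a 95% interval from −0.11 to 0.00 (adjusted p = 0.116). Without the library of SGA315 replicate 2, that difference was called (adjusted p = 0.0348).

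MTTP, whose product transfers lipid to apolipoprotein B, was near the limit of detection in these cells. It had 9, 11 and 13 counts with lovastatin alone, 6, 5 and 3 counts with SGA360 and 11, 9 and 7 counts with SGA315. The SGA360 libraries lay below all others, while the other groups overlapped. No SGA360 library reached the filter's minimum count of 10, so MTTP passed the filter only through libraries of the other groups. Its call with SGA360 is therefore a description. In CPM the means were 0.758 ± 0.132, 0.296 ± 0.0631 and 0.628 ± 0.0969 (SD, n = 3 each), against a limit for a count of 0 of up to 0.243 CPM. The log2 fold change with SGA360 was −1.33 with a 95% interval from −2.20 to −0.46 (edgeR adjusted p = 0.00631). With SGA315 it was −0.26 (95% interval −1.001 to 0.482, adjusted p = 0.543). The difference between the ligands, −1.07 (95% interval −1.99 to −0.16), missed the threshold (adjusted p = 0.0516) and passed it at 0.04995 when libraries were scaled to their totals only. In a fit of the compared groups only, MTTP did not pass the filter in either comparison with SGA360 and had no value.

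The genes that work beside these 2 in particle assembly and export from the endoplasmic reticulum formed a list of 24, of which 23 were tested. With SGA360 11 rose and 9 fell, and with SGA315 13 rose and 5 fell. Between the ligands 17 were lower and 2 higher with SGA360, and the list's median difference was −0.18 beside −0.01 for all genes. SURF4, a cargo receptor that carries lipoproteins out of the endoplasmic reticulum, went from 418 ± 5.44 CPM to 263 ± 4.73 CPM with SGA360 and 298 ± 4.68 CPM with SGA315 (SD, n = 3 each), and fell with both. MIA2, a protein of the exit sites for large cargo, rose with both, by 0.57 and 0.69 on the log2 scale. PLA2G12B, a secreted-phospholipase homologue needed to load lipid onto apolipoprotein B particles, was chosen after its values were seen: it had a log2 fold change of 1.07 ± 0.070 with SGA315 (SE; edgeR adjusted p = 7.35e-22) and −0.02 ± 0.081 with SGA360 (adjusted p = 0.832), and the ligands differed by −1.09 ± 0.069. With libraries scaled to totals only, the list's split was 11 higher and 5 lower with SGA360 and 16 higher and 3 lower with SGA315, and with RLE scaling it was 13 higher and 8 lower with SGA315. Scaling to totals moved the median of all genes to 0.14 with SGA360 and 0.16 with SGA315.

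APOB messenger RNA is edited in the intestine to a form that codes for the short protein of chylomicrons. Of 5 genes listed for that editing, 3 were tested, and APOBEC1, the editing enzyme itself, was not among them. A1CF, its RNA-binding partner, rose from 36.5 ± 0.534 CPM to 54.3 ± 1.60 CPM with SGA315 (SD, n = 3), a log2 fold change of 0.57 ± 0.051, and its log2 fold change with SGA360 was −0.13 (edgeR adjusted p = 0.0318). That call with SGA360 ended with libraries scaled to totals only (log2 fold change −0.017, adjusted p = 0.794), with DESeq2 (0.0736), without lovastatin replicate 1 (0.0534) and without SGA360 replicate 2 (0.122). SYNCRIP, an RNA-binding protein of the same complex, fell with both, by 0.34 with SGA360 and 0.39 with SGA315. RBM47, another cofactor, fell by 0.27 with SGA315, and its log2 fold change of −0.08 with SGA360 turned to 0.03 with libraries scaled to totals only.

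APOA1, APOC3 and APOA4 are neighbours in 1 gene cluster on chromosome 11, and each had its own pattern. APOA1 was measured at 1018, 1028 and 1028 CPM with lovastatin alone, 713, 700.2 and 693 CPM with SGA360 and 661, 683 and 625 CPM with SGA315. All 3 groups were separate, with the lovastatin libraries highest. The mean went from 1025 ± 5.83 CPM to 702 ± 10.0 CPM with SGA360 and 656 ± 29.3 CPM with SGA315 (SD, n = 3 each). The log2 fold changes were −0.54 ± 0.027 (SE; edgeR adjusted p = 9.66e-28) and −0.64 ± 0.027 (adjusted p = 1.09e-31). The ligands differed by 0.10 (95% interval 0.04 to 0.15, adjusted p = 0.00258), a call that ended without the library of SGA315 replicate 3 (adjusted p = 0.0519). The antisense gene APOA1-AS overlaps APOA1 and held 22.3% to 25.0% as many counts. The counting strand is not stated, so reads of this pair cannot be told apart.

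APOC3, which encodes an inhibitor of lipoprotein lipase, rose where its neighbour fell. It was measured at 18.1, 16.5 and 18.4 CPM with lovastatin alone, 19.0, 20.3 and 20.7 CPM with SGA360 and 27.6, 23.7 and 25.2 CPM with SGA315. The SGA315 libraries were highest, and no groups overlapped. With SGA315 the mean went from 17.7 ± 1.02 CPM to 25.5 ± 1.98 CPM (SD, n = 3), a log2 fold change of 0.53 ± 0.072 (SE; edgeR adjusted p = 2.08e-09). With SGA360 it reached 20.0 ± 0.853 CPM, a log2 fold change of 0.17 ± 0.075 whose adjusted p of 0.0411 passed the threshold narrowly. That call ended with RLE scaling (adjusted p = 0.0545), with DESeq2 (0.139), without a filter (0.0800), with the lowest accession per gene (0.0601) and without any 1 of 5 of the 6 libraries compared (up to 0.186). The ligands differed by −0.36 ± 0.070, SGA360 against SGA315 (adjusted p = 2.01e-05).

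APOA4, the apolipoprotein most tied to fat absorption, was a gene of low level. It was measured at 5.12, 4.73 and 5.12 CPM with lovastatin alone, 2.29, 2.90 and 3.15 CPM with SGA360 and 6.44, 5.75 and 6.43 CPM with SGA315. The SGA360 libraries were lowest and the SGA315 libraries highest, with no overlap. Against a lovastatin mean of 4.99 ± 0.225 CPM, the SGA360 mean of 2.78 ± 0.440 CPM (SD, n = 3) was a log2 fold change of −0.86 ± 0.158 (SE; edgeR adjusted p = 2.70e-06). The SGA315 mean of 6.21 ± 0.399 CPM was one of 0.31 ± 0.133 (adjusted p = 0.0326). The rise with SGA315 was not called with DESeq2 (adjusted p = 0.153), without a filter (0.0564), or without any 1 of 5 of the 6 libraries compared: lovastatin replicate 1 (0.0625), 2 (0.0949) or 3 (0.0615), or SGA315 replicate 1 (0.115) or 3 (0.0780). The difference between the ligands, −1.17 ± 0.150, was called under every alternative run.

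Ratios of counts within a library do not depend on how libraries are scaled. As a percentage of APOA1 counts, APOC3 had 1.61% to 1.79% in the lovastatin group, 2.67% to 2.98% in the SGA360 group and 3.47% to 4.18% in the SGA315 group. APOA4 had 0.460% to 0.503%, 0.321% to 0.454% and 0.842% to 1.03% as many counts as APOA1 in the same order. Within this cluster the ratio of APOC3 to APOA1 counts was therefore higher in every library with a ligand. The ratio of APOA4 to APOA1 counts was higher in the 3 SGA315 libraries and lower in the 3 SGA360 libraries.

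**Figure D3:**
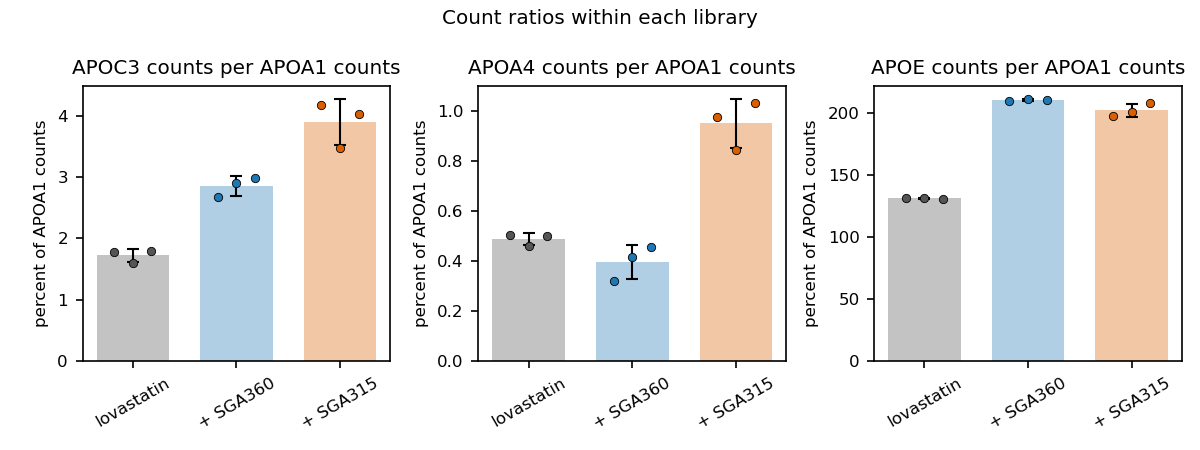
Counts of APOC3, APOA4 and APOE as a percentage of APOA1 counts in each library (points), with the mean (bar) and SD over 3 libraries (error bar). APOC3 rises from 1.61% to 1.79% with lovastatin alone to 3.47% to 4.18% with SGA315, and APOA4 is lowest with SGA360.

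Other genes beside the cluster on chromosome 11 numbered 9, all tested, and none rose and 5 fell with SGA360, with a median log2 fold change of −0.15. With SGA315 2 rose and 6 fell, and the median was −0.11. With libraries scaled to totals only these counts were 1 and 2 with SGA360 and 3 and 3 with SGA315. SIDT2, a lysosomal membrane protein gene, rose by 0.39 with SGA315 (edgeR adjusted p = 1.15e-14). Its log2 fold change of −0.07 with SGA360 (adjusted p = 0.125) turned to 0.05 with libraries scaled to totals only, and was called lower without lovastatin replicate 3 (0.0442) or SGA360 replicate 1 (0.0462). TAGLN, a smooth-muscle type actin-binding protein gene, fell by 0.92 with SGA360 and by 1.19 with SGA315, and it overlaps PCSK7, so that their reads may be mixed.

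APOE, on chromosome 19, was the most abundant member and moved little. It was measured at 1338, 1351 and 1346 CPM with lovastatin alone, 1496, 1479 and 1460 CPM with SGA360 and 1307, 1372 and 1298 CPM with SGA315. The SGA360 libraries were above all others, and the SGA315 libraries overlapped those with lovastatin alone. The mean of 1479 ± 18.1 CPM with SGA360, against 1345 ± 6.59 CPM (SD, n = 3 each), was a log2 fold change of 0.14 ± 0.026 (SE; edgeR adjusted p = 6.53e-06). With SGA315 it was 1326 ± 40.2 CPM and −0.02 ± 0.026 (95% interval −0.07 to 0.03, adjusted p = 0.483), a direction that depended on scaling: with totals only it was 0.10 (adjusted p = 0.000393). Without the library of SGA315 replicate 2 it was −0.06 (adjusted p = 0.0473). The ligands differed by 0.16 ± 0.026 (adjusted p = 8.49e-07).

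Apolipoproteins beyond the members numbered 14, of which 8 were tested. With SGA360 1 rose and 5 fell, with a median log2 fold change of −0.47. With SGA315 4 rose and 4 fell, and the median was −0.11, which became 0.02 with libraries scaled to totals only, a scaling under which 2 rose and 5 fell with SGA360. CLU (clusterin) went from 197 ± 10.1 CPM to 135 ± 2.80 CPM with SGA360 and 110 ± 1.41 CPM with SGA315 (SD, n = 3 each). APOA2, the other main protein of high density lipoprotein, went from 88.1 ± 0.936 CPM to 60.4 ± 0.411 CPM and 69.6 ± 3.79 CPM, and like CLU and APOH fell with both ligands. APOD, a lipocalin, also fell with both, by 0.56 with SGA360 and by 0.98 with SGA315 on the log2 scale.

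APOM was at 0 counts in all 9 libraries, and that says nothing of its expression. Of its 20 nearest protein-coding neighbours on chromosome 6 in the RefSeq order, 17 were also at 0 counts in all libraries and 19 had 10 counts or fewer in total. Around the other members, at most 2 of 20 neighbours were at 0. RPS18, a ribosomal protein gene of the same region that every cell uses, had 5 counts over all 9 libraries, and BAG6 had 2. These genes were chosen after their values were seen, and the cause was not tested.

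FABP1, the fatty acid binding protein of liver and proximal intestine, was the member that rose most with SGA315. It was measured at 28.8, 30.1 and 30.7 CPM with lovastatin alone, 22.2, 22.7 and 26.7 CPM with SGA360 and 54.6, 55.5 and 60.7 CPM with SGA315. The 3 groups were separate, with the SGA315 libraries highest and the SGA360 libraries lowest. From 29.9 ± 0.982 CPM it rose to 56.9 ± 3.26 CPM with SGA315 (SD, n = 3), a log2 fold change of 0.93 ± 0.056 (SE; edgeR adjusted p = 1.26e-23). With SGA360 it fell to 23.9 ± 2.49 CPM, a log2 fold change of −0.34 ± 0.066 (adjusted p = 9.14e-06). The difference between the ligands was −1.26 ± 0.058 (adjusted p = 8.15e-29). Relative to APOB, the FABP1 counts were 2.69% to 3.07% in the lovastatin group, 3.27% to 4.25% in the SGA360 group and 8.07% to 8.54% in the SGA315 group, so that this ratio was higher in every library with a ligand. With SGA360 both genes fell, APOB by the larger log2 value.

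FABP2, the intestinal fatty acid binding protein gene, had 1 count in all, in the library of SGA315 replicate 3, and was not tested. Its level in the other 8 libraries was under the limit that a count of 0 allows. Of 13 other genes of this family, which also bind retinoids, 8 were tested. With SGA360 1 rose and 5 fell, and with SGA315 1 rose and 4 fell, and the median log2 fold change was −0.41 with each. With libraries scaled to totals only, 1 rose and 3 fell with SGA360. RBP2, the cellular retinol-binding protein of the enterocyte, went from 11.8 ± 0.986 CPM to 5.01 ± 0.309 CPM with SGA360 (SD, n = 3), a log2 fold change of −1.24 ± 0.110 (SE; edgeR adjusted p = 9.28e-16), against −0.20 ± 0.096 with SGA315 (adjusted p = 0.0524), and the ligands differed by −1.04 ± 0.114. The change of RBP2 with SGA315 was called lower with RLE scaling (adjusted p = 0.0336), without a filter (0.0467), with the lowest accession per gene (0.0397), in a fit of the compared groups only (0.0431) and without lovastatin replicate 2 (0.0209). CRABP2, a cellular retinoic acid-binding protein, fell with both, by 0.60 with SGA360 and 1.01 with SGA315. FABP5, the epidermal type, which has pseudogene copies that could share its reads, fell with both, by 0.47 and 0.64.

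CREB3L3 differed between the ligands by the largest log2 value of the 8 tested members. It was measured at 6.12, 5.78 and 7.13 CPM with lovastatin alone, 2.77, 2.67 and 3.38 CPM with SGA360 and 10.5, 8.90 and 8.32 CPM with SGA315. The 3 groups did not overlap, with SGA315 highest and SGA360 lowest. The mean fell from 6.35 ± 0.703 CPM to 2.94 ± 0.386 CPM with SGA360 (SD, n = 3), a log2 fold change of −1.14 ± 0.151 (SE; edgeR adjusted p = 1.18e-09). It rose to 9.25 ± 1.14 CPM with SGA315, a log2 fold change of 0.54 ± 0.117 (adjusted p = 4.14e-05). The ligands differed by −1.68 ± 0.139, SGA360 against SGA315 (adjusted p = 1.76e-16), and the call and direction held under all alternatives run.

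Related factors of the CREB3 and ATF6 family, with the Golgi proteases that release them, formed a list of 8 with 7 tested. With SGA360 5 rose and 2 fell, and with SGA315 5 rose and 1 fell, with medians of 0.31 and 0.22. With libraries scaled to totals only, 5 rose and 1 fell with SGA360. ATF6, a sensor of endoplasmic reticulum stress, rose from 51.1 ± 2.43 CPM to 71.2 ± 2.82 CPM with SGA360 and 79.7 ± 2.44 CPM with SGA315 (SD, n = 3 each). CREB3L1, a factor of secretory and collagen-making cells, fell with both, by 0.40 and 0.80 on the log2 scale. CREB3 rose with both, by 0.32 and 0.37, and it overlaps GBA2, a gene of like abundance with which its reads may be mixed.

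Genes reported as CREB3L3 targets in liver, beyond the members, numbered 12, of which 5 were tested. With SGA360 1 rose and 2 fell, and with SGA315 2 rose and 1 fell. KLF15, a factor of fasting metabolism, rose with both ligands, from 6.47 ± 0.731 CPM to 16.5 ± 0.772 CPM with SGA360 and 14.4 ± 1.07 CPM with SGA315 (SD, n = 3 each). CPT1A, which admits fatty acids to mitochondria, fell with both, by 0.72 and 0.65. APOA5, at 0.484 ± 0.187 CPM with lovastatin alone, was called higher with SGA315 at 0.932 ± 0.111 CPM (SD, n = 3; edgeR adjusted p = 0.0245). That call ended with DESeq2 (adjusted p = 0.115), without lovastatin replicate 1 (0.168) and without SGA315 replicate 1 (0.0904). CIDEC, a lipid droplet protein gene, fell by 0.86 with SGA360.

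Transcription factors and coactivators known to act on promoters of these genes formed a list of 32, of which 27 were tested. With SGA360 11 rose and 8 fell, and with SGA315 13 rose and 8 fell, with medians of −0.05 and 0.16. Of all genes tested, 31.4% were called higher and 31.4% lower with SGA360, and 36% and 33.2% with SGA315. HNF4A, a nuclear receptor of liver and gut that binds the promoters of APOC3, APOB and MTTP, went from 457 ± 3.44 CPM to 268 ± 9.84 CPM with SGA360 (SD, n = 3), a log2 fold change of −0.77 ± 0.028 (SE; edgeR adjusted p = 6.89e-35). With SGA315 it was at 438 ± 10.2 CPM and −0.06 ± 0.027 (adjusted p = 0.0481), which turned to 0.06 with libraries scaled to totals only and was not called without lovastatin replicate 2 (0.0688) or SGA315 replicate 3 (0.122), and the ligands differed by −0.71 ± 0.028. GATA6, an intestinal GATA factor, fell with both, from 248 ± 5.83 CPM to 153 ± 4.43 CPM and 149 ± 3.00 CPM. CEBPA, a hepatic and adipose factor, rose with both, by 0.54 and 0.43. CDX2, the homeobox factor of intestinal identity, rose with SGA315 by 0.63, and its 0.08 with SGA360 missed the threshold (adjusted p = 0.0685). With SGA360 it was called with libraries scaled to totals only (0.19, adjusted p = 1.42e-05) and in a fit of the compared groups only (adjusted p = 0.0478). PPARA, the receptor by which fatty acids induce FABP1, rose from 29.1 ± 1.19 CPM to 41.6 ± 3.03 CPM with SGA360 and 55.1 ± 4.66 CPM with SGA315. With libraries scaled to totals only the split was 13 higher and 5 lower with SGA360 and 17 higher and 5 lower with SGA315.

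Receptors and lipases that take up or remodel lipoproteins numbered 22, with 17 tested, and 2 rose and 11 fell with SGA360. With SGA315 5 rose and 11 fell, and the medians were −0.36 and −0.59. With libraries scaled to totals only, 4 rose and 10 fell with SGA360. LRP2 (megalin) fell with both, by 1.10 and 1.21, and its chaperone LRPAP1 by 0.91 and 1.08. Of 16 genes of fatty acid uptake and lipid droplets, 12 were tested. With SGA360 3 rose and 6 fell, and with SGA315 2 rose and 6 fell, with medians of −0.25 and −0.22. SLC27A2, a fatty acid transporter and acyl-CoA synthetase, rose from 24.1 ± 2.89 CPM to 40.4 ± 0.153 CPM and 44.1 ± 4.15 CPM, while ACSL5, an acyl-CoA synthetase of the enterocyte, fell by 0.65 and 0.50.

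**Figure D4:**
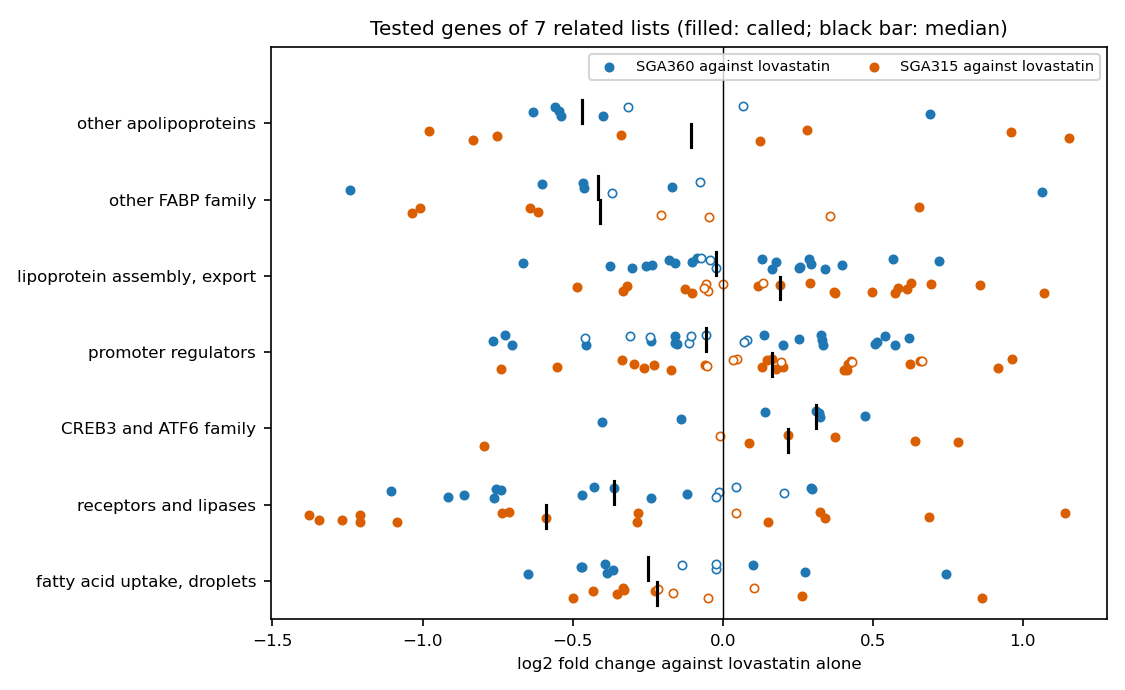
Log2 fold change of each tested gene of 7 related lists for SGA360 and SGA315 against lovastatin alone. Filled points are called at an adjusted p under 0.05 and black bars are medians. The median of receptors and lipases lies lowest with SGA315, at −0.59, and that of the CREB3 and ATF6 family lies above 0 with both ligands.

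Among themselves, the members' patterns were compared by the root mean square difference of their log2 levels, each centred on its mean over the 9 libraries. These libraries share their lovastatin group, and the distances are a description. APOA1 and APOB were closest, at 0.0908. APOA4 and CREB3L3 were 0.239 apart, APOA4 and FABP1 0.287, and FABP1 and CREB3L3 0.344. APOE and CREB3L3 were farthest apart, at 0.767.

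By the same measure over 9 libraries, and among the 11513 genes that averaged 5 CPM or more, the genes most like APOA1 were PSMA7 (0.0265), SPTAN1 (0.0289) and CYCS (0.0299), and those most like APOB were ATP5MK (0.0370), VDAC1 (0.0396) and CENPF (0.0407). The nearest to APOE were STAT5B (0.0198), CREB3L2 (0.0219) and USP49 (0.0257), and the nearest to APOC3 were STAT2 (0.0411), TARBP1 (0.0495) and ZNF189 (0.0561). The other 4 tested members had no gene as near. APOA4 was nearest to AKR1C2 (0.136), GDPD5 (0.149) and DEPTOR (0.151), FABP1 to AKR1C3 (0.119), ANPEP (0.132) and AQP3 (0.135), and CREB3L3 to AKR1C1 (0.242), CCDC141 (0.242) and BMF (0.246). MTTP, with its few counts, was nearest to RBP2 (0.202), TSPAN8 (0.205) and UGT1A6 (0.232). The AKR1C genes are close copies of each other and UGT1A6 shares exons with its family, so their counts are uncertain.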

How the data were processed

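Poly(A) RNA of 9 libraries was analysed from 1 table of raw read counts per RefSeq transcript, as deposited by the authors. Per the submitters' processing notes, which give no roles, TopHat2 2.0.13, HTSeq 0.5.4p3 and the build hg19 were used; annotation release and strand setting: not given in the sources used here. Of 65325 entries, 64340 matched a RefSeq table (GRCh38.p14, used for names and neighbours) and 571 GENCODE 29. The other 414 held 0.224% of counts and were left out. The entry with the highest total stood for each gene, and 43 genes with counts identical to another gene's were dropped. No column was unused.

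Counts were tested in 1 fit of all 9 libraries with edgeR 4.0.16 (R 4.3.3): TMM scaling, filterByExpr (minimum count 10, minimum total 15), quasi-likelihood test and Benjamini-Hochberg adjustment over all genes tested. The procedure was tested on simulated data with far fewer changed genes than were called here. CPM are TMM scaled. Levels per length used GENCODE 29 transcripts.

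The members and gene lists were chosen with earlier results of these data known. Named genes are the members, up to 3 tested genes of each list with the smallest p in each comparison with lovastatin alone, the 3 genes most like each member, and those said to be chosen after their values were seen; some genes that the rule takes are not reported here. Alternatives were RLE scaling, totals only, DESeq2 1.42.0, no filter, the lowest accession per gene, the compared groups only, a replicate block and leaving out each library.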

Additional observations from a re-analysis of the deposited data

How the results depend on the processing

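The count of members called higher with SGA360 against lovastatin alone was 2 and became 1 with RLE scaling, with DESeq2, without a filter on low counts and with the lowest accession per gene. It ranged from 1 to 2 when 1 library was left out, and the call concerned was that of APOC3. The count of members higher with SGA360 than with SGA315 ranged from 1 to 2 when 1 library was left out, through APOA1 without SGA315 replicate 3. Labels number the replicates alike in each group, but deviations of same-numbered libraries correlated at 0.0113 to 0.0853, so the numbers were not taken to pair the libraries, although 8 of 9 libraries correlated best with their own number. With a replicate block the counts of members higher and lower were 2 and 6 with SGA360, 4 and 2 with SGA315 and 2 and 4 between the ligands, and all genes called numbered 9336, 10271 and 6435, against 9208, 10155 and 6258 without it. Scaling to totals only reversed APOE with SGA315 (0.10), HNF4A with SGA315 (0.0626), RBM47 with SGA360 (0.0315) and SIDT2 with SGA360 (0.0481). Leaving out 1 library reversed 4 uncalled or weak values of marker and target genes: CD14 with SGA360 ranged from −0.074 (without SGA360 replicate 3) to 0.139 (also below 0, at −0.06, without lovastatin replicate 2), and between the ligands CPT1A ranged from −0.14 to 0.0204 (without SGA360 replicate 2), CD68 from −0.203 to 0.0198 (without SGA360 replicate 3) and CHGB from −0.0565 to 0.0175 (without SGA315 replicate 3). Among values of single members, 289 kept direction and side of the threshold, 17 lost and 3 gained the call, and 1 reversed. These leave out MTTP in both comparisons with SGA360 in the fit of the compared groups only. It did not pass the filter there, so it was not among the members called lower with SGA360 in that fit. The cause was not tested. Depth limits MTTP, FABP2 and APOA4 most.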

Other observations

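The genes whose pattern over the 9 libraries was nearest to APOA4, FABP1 and CREB3L3 included 3 aldo-keto reductases of the AKR1C family, enzymes that reduce steroids and aldehydes. Against lovastatin alone, AKR1C1 had a log2 fold change of −1.26 with SGA360 (edgeR adjusted p = 1.49e-34) and 0.05 with SGA315 (adjusted p = 0.305). AKR1C2 had −0.66 and 0.42, and AKR1C3 had −0.17 and 0.84, all called. These genes are close copies of each other, so reads may have been shared between them. ANPEP, the brush-border aminopeptidase of the enterocyte, fell by 0.22 with SGA360 and rose by 0.95 with SGA315, and AQP3, a channel for water and glycerol, fell by 0.28 and rose by 0.86. BMF, a pro-apoptotic BCL2-family gene, fell by 0.63 with SGA360 and rose by 0.62 with SGA315. The nearness is what chose these genes, so their directions are a description.

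UGT1A6, a glucuronosyltransferase gene known as an AHR target, was among the 3 genes nearest to MTTP. Its log2 fold change was −1.17 ± 0.032 with SGA360 (SE; edgeR adjusted p = 3.80e-42) and −0.45 ± 0.030 with SGA315 (adjusted p = 2.75e-21). It shares exons with the other genes of its locus, and its counts are uncertain.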
